A study of Mus musculus with 6 samples.

Results

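The 9 genes described here encode enzymes of serine synthesis and of the folate one-carbon pathway, together with a serine transporter: Phgdh, Psat1, Psph, Slc1a4, Shmt1, Mthfd1, Shmt2, Mthfd2 and Mthfd1l. They were examined in lung RNA of mice labelled Carm1 knockout and of mice labelled wild type. The array carried 18193 genes under a single symbol, and these 9 were represented by 24 probe sets, all of which lay above the filter on dim signals. The group was selected on the Carm1 knockout against wild-type comparison of these same arrays with earlier results known, so every difference between genotypes given for the 9 genes is a description. A further 2 probe sets that the platform assigns to Phgdh together with a predicted gene (Gm8096 or Gm6756) were left out, because their signal cannot be assigned to 1 gene.

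Each genotype had 3 samples and 1 array per sample. The knockout labels name the gene as Carm1 in one field and as CRAM1 in another, and give lung at 18.5 days of embryonic development. The wild-type labels call the tissue neonatal, while the design text of the study gives embryonic day 18.5 for both genotypes. Carm1 encodes an arginine methyltransferase and transcriptional coactivator. The labels give no strain, allele, litter or sex, nor whether each sample came from a separate fetus, so the errors below measure the spread between these samples, which may be partly technical.

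Cells make serine from the glycolytic intermediate 3-phosphoglycerate in a chain of reactions catalysed by Phgdh, Psat1 and Psph, or take it up through carriers such as Slc1a4. Serine hydroxymethyltransferases, Shmt1 in the cytosol and Shmt2 in mitochondria, then pass a carbon from serine to tetrahydrofolate. In mitochondria Mthfd2 and Mthfd1l oxidise that carbon and release it as formate, and in the cytosol the trifunctional enzyme Mthfd1 returns formate to folate for the synthesis of purines and thymidylate. The pathway is known for its high activity in dividing and embryonic cells, and several of its genes are known targets of the stress-responsive transcription factor Atf4.

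The promoter sequences of the genes are shown first because genes of this 1 pathway differed between genotypes in opposite directions. All 9 genes were found in the RefSeq promoter table of the mouse assembly GRCm38.p6, with 10 windows of 300 bases. Each window runs from 250 bases before to 50 bases after the annotated start, and sequence outside the windows was not searched. Both strands were searched for TGATGNAA (the letters of the C/EBP-ATF response element bound by Atf4), CACGTG (the E-box), CCAAT (the core bound by NF-Y) and GGGCGG (the GC box). Stretches from 120 bases before to 20 bases after the annotated start are printed 5′ to 3′ on the gene's strand, with the matched letters on either strand in capitals. Phgdh and Mthfd2 are shown as the genes of largest knockout-to-wild-type ratio at any probe set, and Psat1 (the first of its 2 windows) and Slc1a4 as genes whose knockout arrays all lay below the wild types at the brightest probe set.
Phgdh, chr3:98339950-98340089, minus strand: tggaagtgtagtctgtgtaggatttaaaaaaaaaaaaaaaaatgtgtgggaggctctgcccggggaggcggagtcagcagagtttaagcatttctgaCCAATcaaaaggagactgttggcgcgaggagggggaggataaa
Mthfd2, chr6:83317585-83317724, minus strand: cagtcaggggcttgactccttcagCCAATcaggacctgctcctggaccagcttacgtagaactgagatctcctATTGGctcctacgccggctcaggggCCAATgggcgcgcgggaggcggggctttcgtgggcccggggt
Psat1, chr19:15925040-15925179, minus strand: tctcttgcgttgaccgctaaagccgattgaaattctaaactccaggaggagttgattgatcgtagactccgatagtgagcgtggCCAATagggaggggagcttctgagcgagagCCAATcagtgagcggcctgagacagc
Slc1a4, chr11:20332694-20332833, minus strand: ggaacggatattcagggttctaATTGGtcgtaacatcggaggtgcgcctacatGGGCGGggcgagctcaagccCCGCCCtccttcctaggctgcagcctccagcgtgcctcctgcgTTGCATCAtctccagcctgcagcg

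TGATGNAA was found in 1 of the 9 genes (1 of their 10 windows), Slc1a4, as TTGCATCA on the opposite strand beginning 4 bases before the start. Of all 32851 promoter windows in the table, 3.97% held it. CCAAT was present in 7 of the 9 genes (7 of their 10 windows), against 37.4% of all windows. Shmt2 and Mthfd1l were the genes lacking these letters. In Phgdh a CCAAT began 23 bases before the start, and Mthfd2 had 3 such matches, at 96, 47 and 22 bases before it. GGGCGG was present in 6 of the 9 genes (6 of the 10 windows), against 35.7% of all windows. CACGTG was present in 0 of the 9 genes, against 7.15% of all windows. The CCAAT matches were shared by genes that were higher and genes that were lower in knockout lung.

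Properties of the arrays touch some of these results. The median signal was between 105.8 and 121.4 on the 6 arrays, and correlations between arrays were between 0.937 and 0.969. Carm1 itself, measured by a single probe set whose probes may bind other transcripts, gave 814, 678 and 865 on the wild-type arrays and 395, 374 and 511 on the knockout arrays, with no overlap, although the position of this probe set relative to the deleted part is not known here. Transcripts of liver differed by far more between arrays than between genotypes. Albumin (Alb) reached 39146 on wild type replicate 2 and 46294 on knockout replicate 1, against 104 to 4446 on the other 4 arrays, and Afp and Ttr followed the same pattern, with Alb not at 0 on any array. Values without wild type replicate 2 and knockout replicate 1 are therefore given beside the members. Of the 4 arrays left, knockout replicate 3 still had a mean log2 signal of Alb, Afp and Ttr of 12.1. It was 9.93 on knockout replicate 2 and 10.1 and 5.04 on wild type replicates 1 and 3. Knockout replicates 2 and 3, both among these arrays, also had high signals of other neighbouring tissues. On knockout replicate 2 the heart transcript Nppa was 4654, against 2.00 to 220 elsewhere, and Myh6 was 2352, against 196 to 751. On knockout replicate 3 Krt13, listed for oesophagus, was 487, against 18.2 to 62.1 elsewhere. The part of these tissues in the member genes was not tested. Bacterial control RNA, read by 27 control probe sets, gave medians of 579 and 375 for wild type replicates 1 and 3 and of 3.77 to 14.1 elsewhere, which leaves wild type replicate 2 as the 1 wild-type array without that RNA. The sex-linked transcripts marked 1 array of each genotype as male. The defining lung markers were present in both genotypes, with mean signals of Sftpc, a surfactant protein, of 50143 in wild type and 52420 in knockout.

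Phgdh, which catalyses the first and committed step of serine synthesis, was higher in knockout lung at each of its 4 probe sets, and at each of them all 3 knockout arrays lay above all 3 wild-type arrays. At the brightest probe set (number 1) the signal was 432, 508 and 453 in wild type and 830.2, 589.8 and 903 in knockout replicates 1 to 3. The means were 464 ± 39.1 (SD, n = 3) and 774 ± 164, a ratio of 1.64 with a 95% confidence interval from 1.25 to 2.17. Knockout replicate 2 was the lowest knockout array and lay closest to the wild types.

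The third Phgdh probe set had the widest separation. Its signal was 378, 353 and 374 in wild type and 766, 740.0 and 992 in knockout, with means of 368 ± 13.6 and 833 ± 139. The ratio was 2.24, with an interval from 1.77 to 2.84, and the lowest knockout array was still well above the highest wild-type array. The second probe set gave means of 485 ± 39.7 and 635 ± 79.5, a ratio of 1.31. At probe set 4 the means were 285 ± 51.6 and 371 ± 32.4, also a ratio of 1.31, and its interval, from 0.98 to 1.76, included 1. The 4 probe sets carry the suffix that the array's maker uses for probes that may also bind other transcripts, and their log2 differences ran from 0.39 to 1.17, so the size of the Phgdh difference depended on the probe set. Without wild type replicate 2 and knockout replicate 1 the log2 differences of probe sets 1 to 4 were 0.72, 0.51, 1.19 and 0.54, against 0.72, 0.39, 1.17 and 0.39 over all 6. On the 4 arrays without bacterial control RNA, of which only 1 was wild type, they were 0.59, 0.27, 1.23 and 0.18. Leaving out wild type replicate 3 gave 0.24 at probe set 4.

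**Figure D1:**
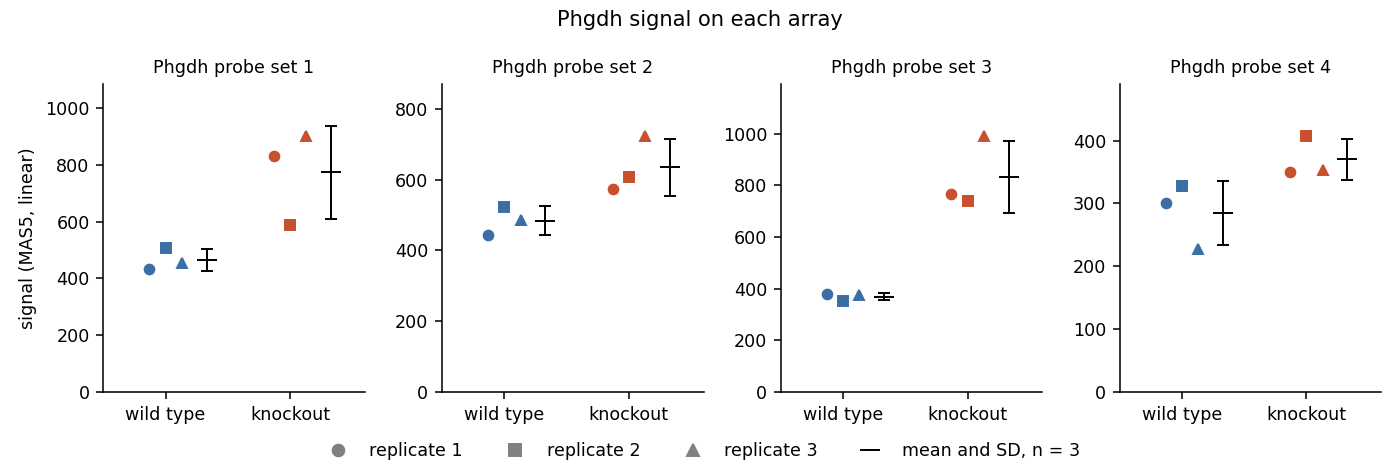
Phgdh signal (linear MAS5 scale) on each of the 6 arrays, 1 panel per probe set, with blue for wild type, red for knockout, symbols for replicates, and a black bar for the mean and SD of 3 arrays. In every panel the 3 knockout arrays lie above the 3 wild-type arrays, from a ratio of 1.31 at probe sets 2 and 4 to 2.24 at probe set 3.

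The enzymes after Phgdh were not higher by a like amount. Psat1, the aminotransferase of the second step, was lower at its brighter probe set, with signals of 2821, 3166 and 2856 in wild type and 2559, 2111 and 2257 in knockout. The means were 2948 ± 190.0 and 2309 ± 229, a ratio of 0.78 (interval 0.66 to 0.92), and the groups did not overlap. Its other probe set carries a suffix for probes that may also bind other transcripts. There the means were 1306 ± 261 and 1338 ± 64.0, with the groups overlapping and a ratio of 1.04, so the 2 Psat1 probe sets disagreed. When wild type replicate 2 and knockout replicate 1 were left out, their log2 differences were −0.38 and 0.19, against −0.36 and 0.05 over all 6, and that of the second was −0.12 without wild type replicate 3. Psph, the phosphatase of the last step, had signals of 738, 603 and 562 in wild type and 812, 499.6 and 687 in knockout. Its groups overlapped on both sides, the ratio was 1.04 with an interval from 0.76 to 1.41, and its log2 difference of 0.05 became −0.14 without wild type replicate 2 and knockout replicate 1.

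Slc1a4, a carrier of serine, alanine and other neutral amino acids, was lower at all 3 probe sets. At the brightest the signal was 683, 607 and 637 in wild type and 502, 529 and 456 in knockout. The means were 642 ± 38.1 and 495 ± 36.8, a ratio of 0.77 (interval 0.63 to 0.94), with no overlap between the groups. The other probe sets had ratios of 0.79 and 0.82, and at the last of these knockout replicate 1 overlapped the wild types with a signal of 403. The log2 differences of the 3 probe sets, −0.38, −0.33 and −0.29, lay closer together than those of Phgdh, Shmt1 or Shmt2. With wild type replicate 2 and knockout replicate 1 left out they were −0.42, −0.35 and −0.46.

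The cytosolic folate enzymes differed from each other in direction. Mthfd1 was lower at all 3 probe sets, with ratios of 0.76, 0.83 and 0.74. At the brightest the signal was 5166, 5137 and 4013 in wild type and 4249, 3858 and 2851 in knockout, with means of 4772 ± 658 and 3652 ± 721. Knockout replicate 1 lay above wild type replicate 3, so the groups overlapped, as they did at the other probe sets of this gene. Without wild type replicate 2 and knockout replicate 1 the log2 differences were −0.46, −0.43 and −0.70, against −0.40, −0.27 and −0.44 over all 6. On the arrays without bacterial control RNA they were −0.51, −0.15 and −0.07, and without knockout replicate 3 they were −0.23, −0.15 and −0.47. The size of the Mthfd1 difference therefore varied with the arrays used, while its sign was negative in each of these settings.

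Shmt1, the cytosolic serine hydroxymethyltransferase, was higher at all 4 probe sets, although by unequal amounts. At the brightest the signal was 523, 467 and 384 in wild type and 570.1, 562 and 537 in knockout, with means of 458 ± 70.1 and 557 ± 17.2 and a ratio of 1.22 (interval 0.97 to 1.55). The second had means of 330.0 ± 30.2 and 445 ± 59.2, a ratio of 1.35, and at these 2 probe sets the groups did not overlap. The third, with a ratio of 1.08, and the dimmest, with a ratio of 2.02, both had overlapping groups. At the dimmest, wild type replicate 1 stood at 41.5 against 174 and 148 on the other wild-type arrays. Without wild type replicate 2 and knockout replicate 1 the log2 differences of the 4 probe sets were 0.29, 0.29, −0.13 and 1.17, against 0.29, 0.43, 0.11 and 1.02 over all 6. Leaving out wild type replicate 3 took that of the brightest to 0.17, and leaving out wild type replicate 1 took that of the dimmest to 0.37.

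The mitochondrial enzymes had a higher mean in knockout lung at each of their 7 probe sets, of which 1 was above the filter through the knockout arrays only. Mthfd2, the mitochondrial methylenetetrahydrofolate dehydrogenase and cyclohydrolase, had signals of 115, 70.1 and 188 in wild type and 288, 228 and 261 in knockout at its brighter probe set. The means were 124 ± 59.8 and 259 ± 29.7, a ratio of 2.25 and a wide interval of 1.31 to 3.85, with no overlap between the groups. At its other probe set the means were 143 ± 37.2 and 215 ± 78.9, and knockout replicate 2 overlapped the wild types with a signal of 145. The log2 differences were 0.73 and 0.48 without wild type replicate 2 and knockout replicate 1, against 1.17 and 0.56 over all 6. On the 4 arrays without bacterial control RNA they were 1.88 and 0.17, so the size of the Mthfd2 difference varied with the arrays used.

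Mthfd1l, the mitochondrial formyltetrahydrofolate synthetase that releases formate, had a narrow spread at its 1 probe set. The signal was 245, 271 and 266 in wild type and 431, 347 and 385 in knockout, with means of 261 ± 13.7 and 387 ± 42.4. The ratio was 1.48, with an interval from 1.15 to 1.91, and the groups were well apart. The log2 difference was 0.57 over all arrays and 0.52 without wild type replicate 2 and knockout replicate 1.

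Shmt2, the mitochondrial serine hydroxymethyltransferase, had signals of 963, 862 and 556 in wild type and 1220.4, 1034 and 1092 in knockout at its brightest probe set. The means were 794 ± 212 and 1115 ± 95.3, a ratio of 1.44, and the groups did not overlap. Its second probe set, the only one of the gene without a suffix for shared probes, had means of 648 ± 73.4 and 679 ± 70.9, a ratio of 1.05, with overlapping groups. Probe set 3 had a ratio of 1.31 with overlapping groups and an interval from 0.83 to 2.09. Probe set 4 had means of 53.1 ± 1.73 and 97.2 ± 15.6, and because all its wild-type arrays lay below the filter signal of 59.7 it had passed the filter only through the knockout arrays, so its ratio supports nothing. Leaving out wild type replicate 3 gave a log2 difference at probe set 1 of 0.29 in place of 0.53, and at probe set 3 of 0.11 in place of 0.39. Without wild type replicate 2 and knockout replicate 1 the log2 differences of probe sets 1 to 4 were 0.54, 0.04, 0.68 and 0.90. The 4 probe sets of Shmt2 thus gave unequal differences, with a separation of the groups at the brightest and overlap at probe sets 2 and 3.

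**Figure D2:**
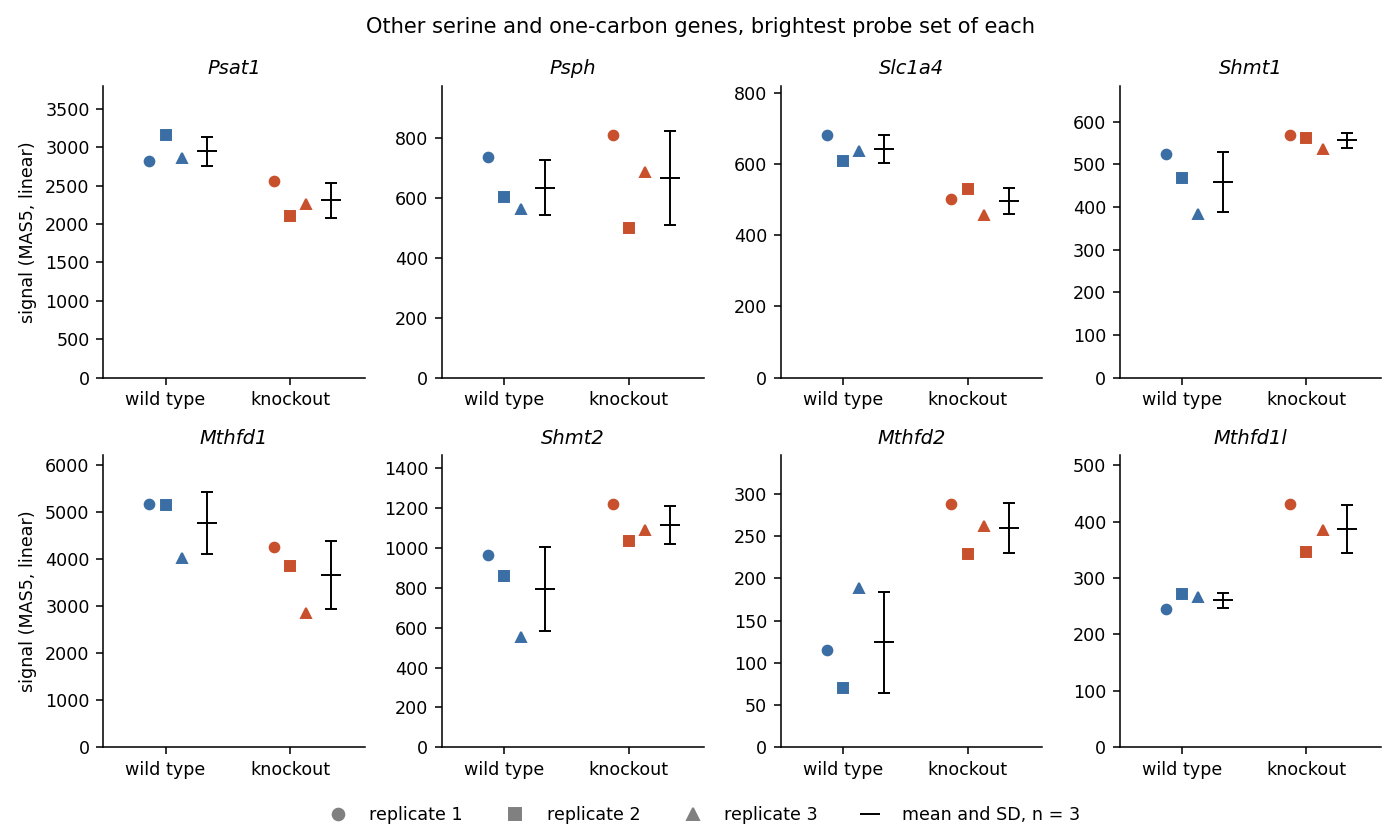
Signal (linear MAS5 scale, each axis starting at 0) of the other 8 genes at the brightest probe set of each, with blue for wild type, red for knockout, symbols for replicates and a black bar for the mean and SD of 3 arrays. Shmt1, Shmt2, Mthfd2 and Mthfd1l have all knockout arrays above the wild types, Psat1 and Slc1a4 have all below, and Psph and Mthfd1 overlap.

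Of the 24 probe sets, 10 carry a suffix for probes that may also bind other transcripts. Besides those of Phgdh and Shmt2, they are the second of Psat1, the brightest of Shmt1 and the third of Mthfd1. Over the 24 probe sets, 17 were higher and 7 lower in knockout lung, with probe set 4 of Shmt2 among the higher ones. The knockout arrays lay wholly above the wild types at 10, where this held for 10.7% of all tested probe sets, and wholly below at 3, where it held for 9.36%. With limma and Benjamini-Hochberg adjustment over 27022 probe sets, 0 of the 24 passed an adjusted p of 0.05, as 0.0296% of all probe sets did, and their adjusted p ran from 0.0796 at Phgdh probe set 3 to 0.935 at Psph. At an unadjusted limma p under 0.05 there were 13, of which 8 were higher and 5 lower, against 13.6% of all tested probe sets. Shmt2 probe set 4, which passed the filter only through the knockout arrays, is among the 10 wholly above. It is also among the 13 at an unadjusted limma p under 0.05 and the 8 of them that were higher. Nothing is read from these shares, since the genes were chosen on the same comparison. With the brightest probe set of each gene, 6 genes were higher and 3 lower, with a median log2 difference of 0.29 against 0.03 over 12947 genes. By location, the mitochondrial enzymes were higher at the 6 probe sets other than Shmt2 probe set 4. The cytosolic ones were higher at the 4 of Shmt1 and lower at the 3 of Mthfd1. Shmt2 probe set 2, at a log2 difference of 0.07, became −0.03 without wild type replicate 3 and −0.01 on the arrays without bacterial control RNA.

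**Figure D3:**
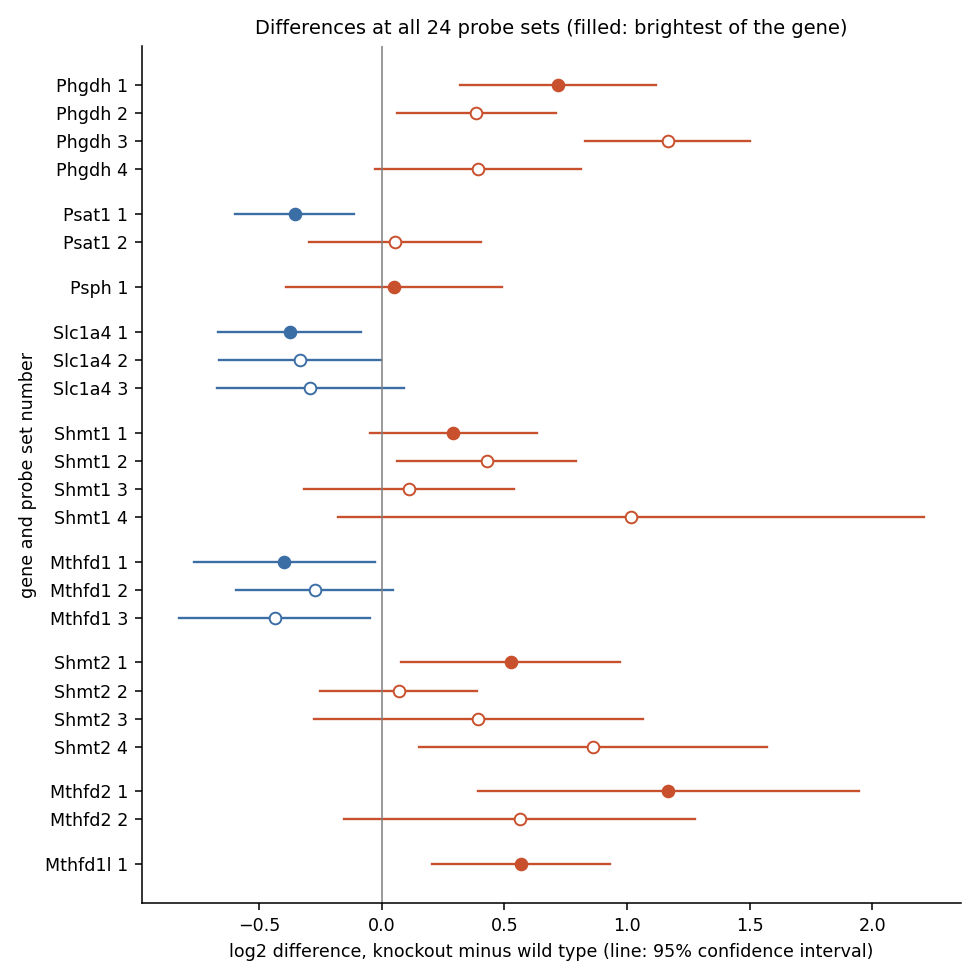
Log2 difference, knockout minus wild type, at all 24 probe sets (points; filled for the brightest of a gene) with the 95% confidence interval from limma (lines), red for higher and blue for lower. The points of Phgdh, Psph, Shmt1, Shmt2, Mthfd2 and Mthfd1l lie to the right of 0, those of Mthfd1 and Slc1a4 to the left. The 2 Psat1 points lie on opposite sides. The interval excludes 0 at 13 of the 24 probe sets, among them Shmt2 probe set 4, which passed the filter only through the knockout arrays.

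The knockout arrays were not alike in these genes. On the log2 scale, centred on the mean of the 6 arrays, Phgdh probe set 1 stood at 0.48, −0.01 and 0.60 on knockout replicates 1 to 3, and Mthfd1l at 0.44, 0.13 and 0.28. Genes of G1 and S phase had array medians of 0.40, 0.10 and 0.46 and genes of G2 and M phase 0.58, −0.11 and 0.43 on the same arrays, so knockout replicate 2 was the lowest knockout in these 4 profiles. The other Phgdh probe sets did not all share this order. At probe set 4 knockout replicate 2 was the highest array, at 0.34 against 0.12 and 0.13, and at probe set 2 the values were 0.05, 0.14 and 0.39, with knockout replicate 1 lowest. On the wild-type arrays the G1 and S phase medians were −0.64, −0.29 and −0.16 and those of Phgdh probe set 1 −0.46, −0.23 and −0.39. Mthfd1 at its brightest probe set stood at 0.04, −0.10 and −0.54 on the knockouts, with knockout replicate 3 lowest. Whether the cell cycle genes have a part in the Phgdh difference was not tested.

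**Figure D4:**
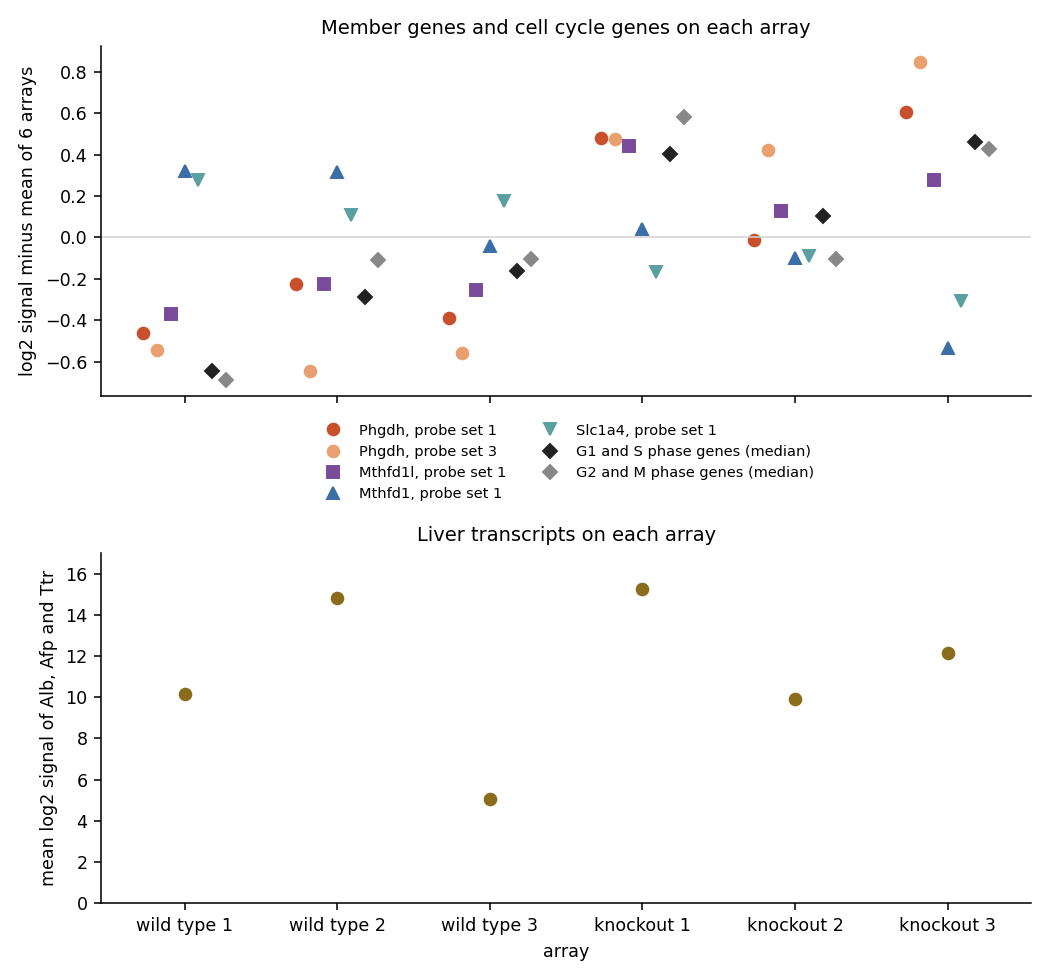
Upper panel, log2 signal minus the mean of the 6 arrays for 5 probe sets of the members and for the medians of the G1 and S phase and G2 and M phase genes. Lower panel, mean log2 signal of the liver transcripts Alb, Afp and Ttr on the same arrays, highest on knockout 1 (15.2) and wild type 2 (14.8) and lowest on wild type 3 (5.04).

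The genes whose array profile was most like that of Phgdh probe set 1 were sought among 23420 other named probe sets by the root mean square difference of centred log2 values over the 6 arrays. The nearest were Cks2, a subunit of cyclin-dependent kinases (0.064), Tpx2, a spindle assembly factor (0.072), Lhfpl2 (0.076), Lig1, the DNA ligase of replication (0.086), and Zfp454 (0.093), where the median probe set had 0.467. The matched probe sets of Cks2, Tpx2 and Lhfpl2 were not the brightest of their genes, while those of Lig1 and Zfp454 were. At the matched probe sets Cks2 had means of 3387 ± 230 and 5701 ± 1120.1, and Lig1 of 559 ± 36.6 and 869 ± 147. Among the other members the nearest was Mthfd1l, at position 92 with 0.160, while the brightest probe set of Mthfd1 was at position 20117 with 0.649. The other Phgdh probe sets differed from the first by 0.237, 0.277 and 0.336, which is more than Mthfd1l did.

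Other genes of serine, glycine and folate metabolism were compared through lists that did not include the members and that were drawn up with earlier results of these arrays known. From each list the 2 genes of smallest p are given. Of the 117 genes tested over 6 lists, 0 passed limma's adjusted p of 0.05, where 0.0541% of all 12947 genes did, and 54 had an unadjusted p under 0.05, against 16.5% of all genes. Of these 54, 20 were in the G1 and S phase list and 17 in the G2 and M phase list. Of 13 tested genes of serine and glycine handling, 8 were higher and 5 lower, with a median log2 difference of 0.07. The glutamine and serine carriers Slc38a1 and Slc1a5 had the smallest p. Slc38a1 had means of 475 ± 116 and 757 ± 90.4, and Slc1a5, a close relative of Slc1a4, of 863 ± 306 and 1265 ± 72.7. At both, the knockout arrays lay above the wild types, the reverse of Slc1a4, with adjusted p of 0.203 and 0.321 in limma.

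Of 21 tested genes of the folate and methionine cycles, 13 were higher and 8 lower, with a median of 0.12. Ggh, which removes glutamates from folate, had means of 630.1 ± 51.4 and 852 ± 132, and Folr1, a folate receptor, had a dim signal of 38.6 ± 15.2 and 127 ± 72.5, with its wild-type arrays below the filter signal, so that it passed the filter only through the knockout arrays. At both the groups did not overlap, and the adjusted p of limma were 0.267 and 0.242. Some genes of this list followed the liver transcripts: Bhmt, a liver enzyme of methionine synthesis, reached 3449 on wild type replicate 2 and 4638 on knockout replicate 1 and lay between 60.2 and 271 on the other arrays. The part of liver RNA in the member genes was not tested beyond the values without these 2 arrays.

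In the list named for purine and thymidylate synthesis, 15 of 19 genes were higher, with a median of 0.16. Not all of its genes use folate, since it also holds genes of pyrimidine and deoxynucleotide synthesis such as Cad, Umps and Rrm1. Tyms, the thymidylate synthase, was in the folate list and lay below the filter. Adss, of adenylate synthesis, had means of 3911 ± 202 and 4806 ± 158, and Prps2, which makes the ribose phosphate donor, of 2343 ± 264 and 1679.7 ± 286. Neither passed, at adjusted p of 0.215 and 0.217 in limma, and they differed in direction. Of 22 genes of the Atf4 pathway, 14 were higher and 8 lower, with a median of 0.06. Atf4 itself, chosen here outside the rule on p, had means of 3399 ± 158 and 3586 ± 128, with overlapping groups.

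The 2 genes of smallest p in the Atf4 list differed in direction. Gpt2, an alanine aminotransferase, had means of 268 ± 24.4 in wild type and 396 ± 17.9 in knockout. Ddit4, a stress-induced inhibitor of mTORC1, had means of 2814 ± 169.8 and 2239 ± 35.7. Of the 6 lists those of the cell cycle had the largest medians, with 20 of 20 of G1 and S phase and 22 of 22 of G2 and M phase higher, at medians of 0.73 and 0.62. Mcm5, of the replicative helicase, and Uhrf1, which helps copy DNA methylation, had log2 differences of 0.90 and 0.86 at adjusted p of 0.108 and 0.135 in limma. Cenpe, a kinetochore motor, and Birc5, of chromosome segregation, had log2 differences of 0.78 and 0.79 at adjusted p of 0.183 and 0.198.

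**Figure D5:**
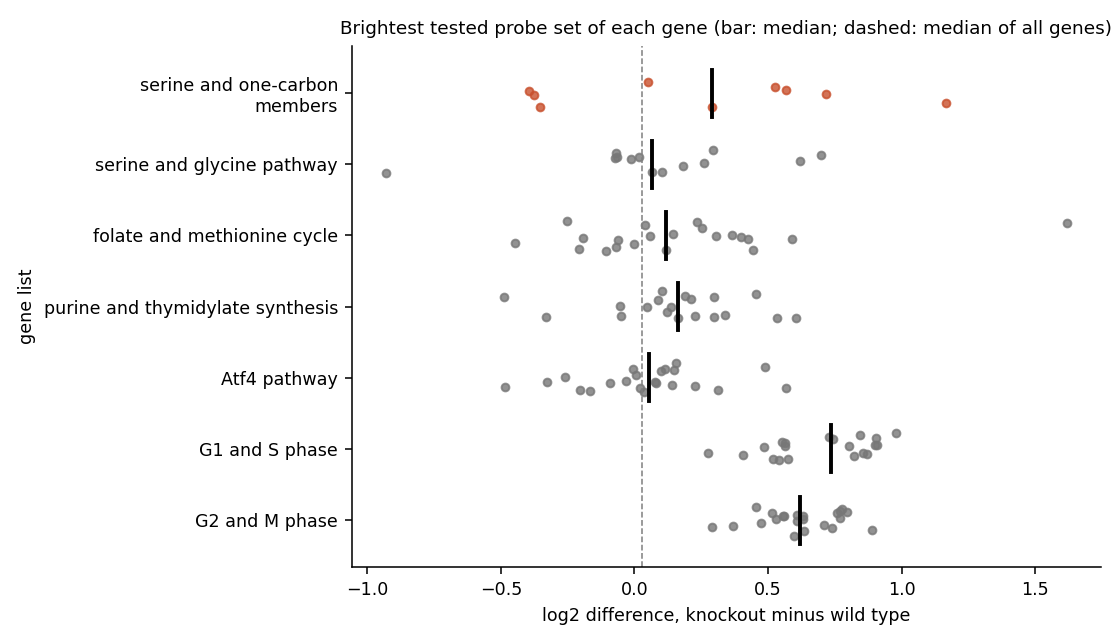
Log2 difference, knockout minus wild type, of each gene at its brightest tested probe set (points) for the 9 members and 6 lists of other genes, with black bars at the list medians and a dashed line at the median of all tested genes (0.03). The cell cycle lists lie wholly to the right of 0, and the members spread from −0.40 for Mthfd1 to 1.17 for Mthfd2.

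Markers of lung cell types also differed between the arrays. In bulk RNA fewer cells of a type cannot be told apart from less RNA per cell. Of 9 alveolar type I markers 9 were lower in knockout lung, with a summed signal of 88003 to 123198 in wild type and 55787 to 74807 in knockout, and of 8 endothelial markers 7 were lower, with sums of 18432 to 20898 and 13740 to 16291. The 4 tested mast cell and basophil markers were higher, with summed levels of the list of 1222 to 1859 and 2889 to 5709. Of these, Mcpt8 had wild-type signals of 34.3, 21.2 and 27.4, below the filter signal, so it passed the filter only through the knockout arrays. Kit had overlapping groups, with means of 1001 ± 300 and 1140 ± 95.5. Fibroblast and smooth muscle markers were higher in 7 of 9, with overlapping sums of 53232 to 57358 and 54588 to 63102. In this list the knockout arrays lay wholly above the wild types at 3 markers and wholly below at 1. Over all 12947 tested genes they lay wholly above at 1629 and wholly below at 1364, so nothing is read from these counts. Of 4 mesothelial markers 4 were lower, with sums of 6688 to 7850 and 3784 to 5552. At 1 of them all knockout arrays lay below the wild types, as at 1364 of all 12947 genes. Airway markers were higher in 6 of 7 tested, and markers of macrophages and other leukocytes in 2 of 6. For type II cells the sums overlapped, at 137619 to 174866 and 125744 to 147282, as they did for the lung epithelium, airway and leukocyte lists. Whether cell makeup differed, and its part in the Phgdh, Mthfd2, Mthfd1l, Slc1a4 and Mthfd1 differences, was not tested.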

How the data were processed

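Lung RNA of 3 wild-type and 3 Carm1 knockout samples was measured on Affymetrix mouse arrays. The authors deposited linear intensity values computed with MAS5, per the submitters' processing notes (MAS5 version: not given in the sources). The 2% trimmed mean of each array equalled 500, and no further normalization was applied. Of 45101 probe sets, 34945 had 1 symbol in the platform annotation, 932 several and 9160 none. For 34754 probe sets with 1 symbol the gene ID could be looked up among RefSeq genes of GRCm38.p6, the source of the promoters too.

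After 64 control probe sets were left out, the 27022 whose mean log2 value exceeded the 40th percentile, a signal of 59.7, entered the test. They were fitted with limma 3.58.1 in R 4.3.3 (lmFit and a two-sided moderated test from eBayes, its prior following intensity), knockout minus wild type, with Benjamini-Hochberg adjustment over all 27022 and a threshold of 0.05. Ratios are of geometric means with 95% confidence intervals. The brightest tested probe set stood for a gene in counts over genes. The fit was tested on simulated data. The members and lists were chosen with earlier results of these data known. Named are all members, Carm1, the 2 genes of smallest p of each pathway list where none passed, the 5 genes most like Phgdh, and markers given beside a result. Atf4, Bhmt and the transcripts of liver, heart and oesophagus were added after their values were seen. The number of arrays limits the precision. Other normalizations, filters, variance models, left-out arrays and the replicate number as a block were tried.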

Additional observations from a re-analysis of the deposited data

How the results depend on the processing

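With 8 probe sets past the adjusted threshold of limma over all genes in the main setting, the number was 0 without the intensity trend (3287 at an unadjusted p under 0.05), 40 with a robust variance, 4 with sex as a term, 2 with bacterial control RNA as a term, 3 on only the arrays without it, and 58 without wild type replicate 2 and knockout replicate 1, a setting chosen after seeing the data. Leaving out each array in turn gave 0 to 13 (2425 to 3473 unadjusted), the lowest when either wild type 1 or 3, or either knockout 2 or 3, was left out. Samples with the same replicate number did not deviate together (correlations of −0.14, −0.38 and −0.01), and with the replicate number as a block the count was 0 (3054 unadjusted). The members' median log2 difference of 0.29 became 0.46 with the mean of all probe sets of a gene, and leaving out each array in turn gave 0.17 to 0.39. Psph, at 0.05, ran from −0.11 to 0.25 when arrays were left out in turn and reversed to −0.03 without wild type replicate 3, −0.11 without knockout replicate 1 and −0.14 without wild type replicate 2 and knockout replicate 1. Phgdh probe set 3 passed under 1 of 18 alternatives, the robust variance (adjusted p 0.0349), and its log2 difference ran from 1.03 to 1.24. The cause of these changes was not tested.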
